A study of Mus musculus with 18 samples.

Results

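The potassium channel subunit genes described here are all single-symbol transcript clusters on the arrays whose symbol is Kcn, letters and a digit. Antisense and overlapping transcripts were left out, and the brightest cluster stood for each gene. They were 87 of 22180 genes measured. Of the 87 genes, 71 encode pore-forming subunits: 26 voltage-gated subunits, 10 silent Kv subunits that modify other Kv channels, 8 calcium- or sodium-activated subunits, 14 inward rectifiers and 13 leak subunits. The other 16 encode auxiliary subunits, among them 4 K channel interacting proteins (KChIPs), 3 Kv beta subunits, 5 KCNE subunits and 4 beta subunits of the BK channel.

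Potassium channels let potassium ions leave or enter the cell along their gradient. They set the resting potential of neurons, repolarize the action potential and control how often a cell fires. A channel is built of pore-forming subunits, which are voltage-gated (Kv), opened by calcium or sodium, inwardly rectifying (Kir) or constantly open leak subunits with a pair of pore domains, and many carry auxiliary subunits that set their gating and their transport to the membrane. In the cerebellum, granule neurons are known for leak channels of the TASK type and for fast, A-type currents through Kv4 channels bound to KChIPs.

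RNA was measured on Affymetrix Mouse Gene 2.0 ST arrays, and values are log2 signals. The first experiment compared whole cerebella, taken at P3, of 3 Dot1l-cKO mice (Dot1l f/f::Atoh1 cre/+, C57BL6/J) and 3 controls (Dot1l f/f::Atoh1 +/+, same strain). For control replicate 3 the title gives 2 floxed alleles and the description 1. In the cKO mice Cre driven by Atoh1 removes a floxed exon of Dot1l, the H3K79 methyltransferase gene, in the granule cell lineage. Which other cell types of the cerebellum keep the exon was not analysed here. The second compared granule neuron progenitors (CGNP) of NMRI wild-type mice, kept with SHH and treated for 4 h with the DOT1L inhibitor SGC0946 or with DMSO (3 cultures each; by the mouse numbers in the labels, 2 mice gave all of them and 1 culture per treatment pooled both). The third compared differentiating granule neurons (CGN) of NMRI wild-type mice as well, kept with serum for 44 h with SGC0946 or DMSO (2 cultures each). The labels give the cultured mice as P7, except for 1 CGN culture with SGC0946 at P9. They also give 5 and 7 days in vitro for the CGN cultures with SGC0946, against 2 and 4 days for those with DMSO, so inhibitor and labelled time in culture cannot be told apart. The labelled days rise from 2 to 7 with the array number, whereas the methods give 1 CGN schedule, with inhibitor for 44 h from 4 h after plating. A pair of further CGN arrays, whose title and description name opposite treatments, entered no comparison. The labels give the inhibitor dose as 5 mM and the methods give the same number in µM.

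The probes for Dot1l span the whole transcript and cannot show the loss of 1 exon. Dot1l read 9.24, 9.43 and 9.01 in cKO cerebella, against 9.05, 9.13 and 9.05 in control cerebella. Array distributions differed little within an experiment and more between experiments, as after separate normalization, so differences between experiments are given as descriptions without a test. Progenitor markers (8 genes such as Atoh1, Barhl1 and Mycn) averaged 9.65 to 9.82 per array in cKO, against 10.1 to 10.2 in control cerebella. They averaged 7.79 to 7.80 in CGN, against 8.91 to 9.09 in CGNP, both with DMSO. In whole cerebella and mixed cultures, fewer cells of a type and less RNA per cell cannot be told apart.

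Signals ranged widely between members. Of the 87 genes, 29 lay above the median signal of all genes in each of the 3 experiments and 41 lay below it in all 3. Kcnd2, the Kv4.2 pore subunit of A-type channels, was among the 5 brightest members in every experiment. So was Kcnk1 (TWIK-1, a leak subunit). Kcnip1, Kcnip3 and Kcnip4, which encode KChIPs, completed the brightest 5 in cerebella. In CGNP the places were held by Kcnj3 (a subunit of G protein-gated Kir channels), Kcnk9 (TASK-3) and Kcnip3, and in CGN by Kcnj3, Kcnk9 and Kcnk10 (TREK-2). Signals of different probes are not a scale of abundance between genes.

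**Figure D1:**
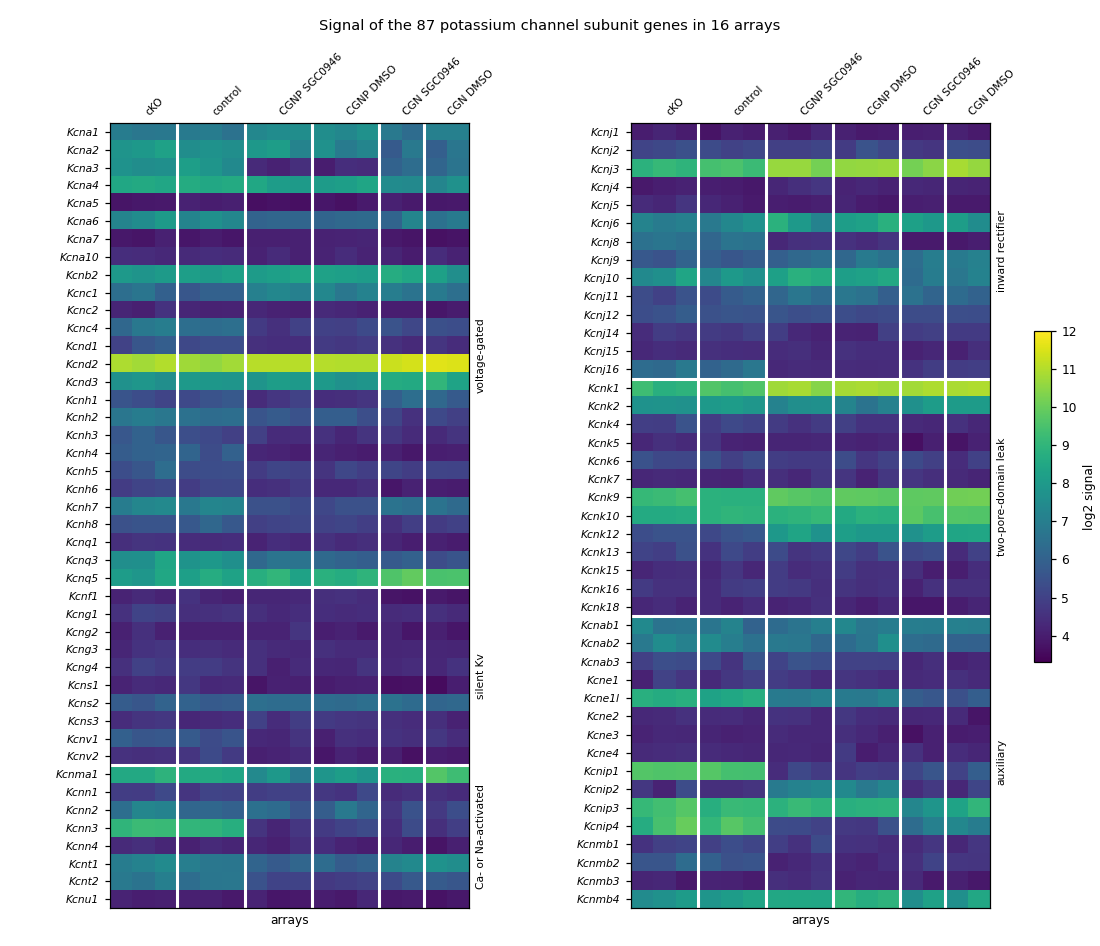
Log2 signal (colour) of each of the 87 genes (rows, by class) in the 16 arrays compared (columns, by group). Kcnd2 and Kcnk1 are bright in all groups, whereas Kcnip1, Kcnip4, Kcnn3 and Kcna3 are bright in cerebella and dim in CGNP.

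KChIP genes held the extremes among the members, both between CGNP and cerebella and between CGN and CGNP. These calcium-binding proteins attach to the N-terminus of Kv4 subunits and set the amount and inactivation of the A-type current. Kcnip1 read 4.65, 4.91 and 4.81 in CGNP with DMSO, against 9.70, 9.42 and 9.42 in control cerebella. Its difference was -4.72, with the CGNP signal below the median of all genes. Background was not analysed here, so no fold is given for signals this dim. In CGN with DMSO it read 5.03 and 5.92, so both cultures lay far below the tissue. Kcnip4 read 4.76, 4.70 and 5.46 in CGNP with DMSO, against 9.05, 9.74 and 9.41 in control cerebella, a difference of -4.43. In CGN with DMSO Kcnip4 was at 7.34 and 6.95, between CGNP and tissue without overlap on either side.

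Kcnip2 had the opposite order. It read 7.44, 6.82 and 7.29 in CGNP with DMSO, against 4.48, 4.49 and 4.60 in control cerebella, a difference of 2.66 with the cerebellar signal below the median of all genes. In CGN with DMSO it read 4.27 and 5.11, and these overlapped the cerebella. Kcnip3, known also as the transcriptional repressor DREAM, varied least. It read 8.35 and 9.04 in CGN with DMSO, 8.80, 8.88 and 8.93 in CGNP with DMSO, and 8.76, 9.18 and 9.11 in control cerebella, and all of these overlapped. The Kv4 pore genes that KChIPs serve differed less than Kcnip1, Kcnip2 and Kcnip4 did. Kcnd2 read 11.62 and 11.53 in CGN with DMSO, 11.05, 11.00 and 11.01 in CGNP with DMSO and 10.75, 10.59 and 10.79 in control cerebella, with no overlap between these groups. Its difference between CGN and CGNP was 0.55, and 1.12 after joint quantile normalization of the culture arrays. Kcnd3 read 9.04 and 8.36 in CGN with DMSO, above 7.96, 7.72 and 7.84 in CGNP with DMSO. Kcnd1 stayed between 4.39 and 5.37 in these 3 groups.

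**Figure D2:**
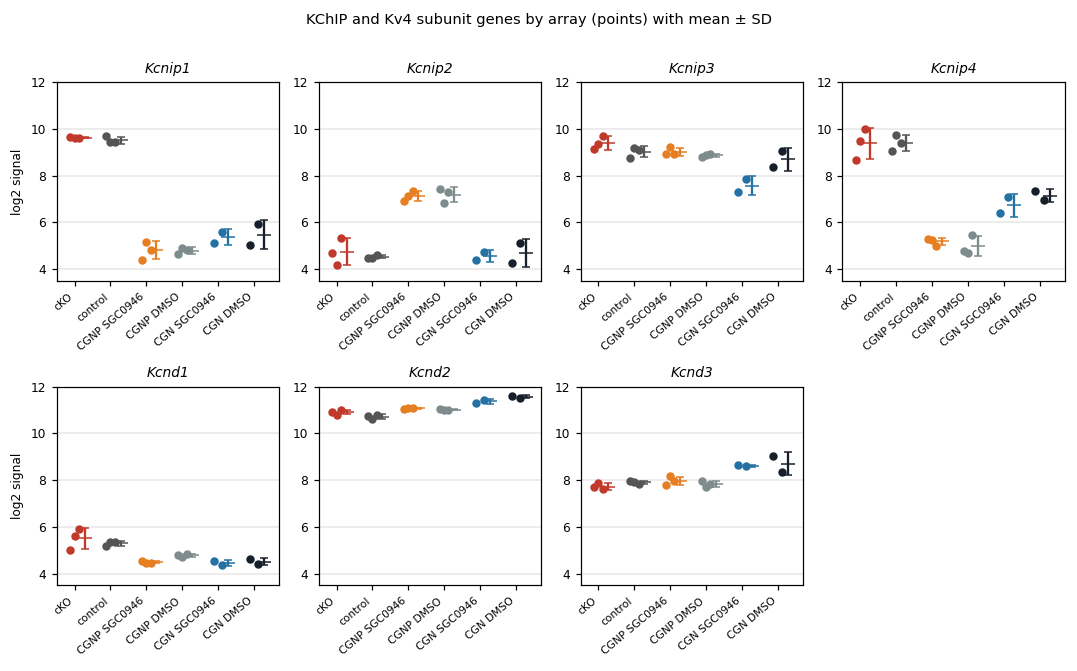
Log2 signal (vertical axis) of the 4 KChIP and 3 Kv4 subunit genes in the 6 groups, 1 point per array, with the group mean and SD beside the points (n = 3, or n = 2 for CGN). Kcnip2 is high in CGNP alone, Kcnip1 is high in cerebella alone and Kcnip4 is intermediate in CGN.

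Counted over all members, CGNP with DMSO and control cerebella were at least 4-fold apart without overlap in 6 genes. Those higher in CGNP numbered 2, against 0.316% of all genes. They were Kcnip2 and Kcnk12 (THIK-2, a leak subunit), which read 8.17, 7.94 and 7.94 in CGNP with DMSO, against 5.20, 5.51 and 5.70 in control cerebella. Those lower in CGNP numbered 4, against 4.31% of all genes, and were Kcnip1, Kcnip4, Kcnn3 and Kcna3. Kcnn3, an SK channel opened by intracellular calcium, read 4.79, 5.04 and 5.29 in CGNP with DMSO, against 8.74 to 9.03 in the 3 control cerebella. Whole cerebella also hold Purkinje cells, interneurons and vessels. Markers of Purkinje cells (4 measured) averaged 6.09 to 6.50 per array in CGNP with DMSO, against 9.59 to 9.78 in control cerebella, and those of GABAergic interneurons (7) 5.77 to 5.96, against 7.29 to 7.50. Their part in these differences was not tested. After joint quantile normalization the counts were again 2 higher (0.573% of all genes) and 4 lower (2.1%). The strain and age of the mice differed as well.

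CGN and CGNP with DMSO were cultured as later and earlier granule cells, and are called stages here. They also differed in medium, hours with DMSO and labelled days in vitro, which cannot be told apart from stage. Between them 7 members were at least 2-fold higher in CGN without overlap (2.75% of all genes) and 4 at least 2-fold lower (11.2%). The median difference was -0.11 over members and -0.23 over all genes. After joint quantile normalization of the culture arrays, 11 members were higher (5.03%) and 3 lower (4.3%), so the split depended on scaling. The 7 higher genes kept a difference above 1 in that setting. Markers of Purkinje cells averaged 7.43 to 8.05 per array in CGN, against 6.09 to 6.50 in CGNP, with 2 of 4 at least 2-fold higher. Markers of pericytes and smooth muscle averaged 5.96 to 6.02, against 5.54 to 5.59 (2 of 7 at least 2-fold higher), and those of granule neurons 6.73 to 6.86, against 6.47 to 6.59 (2 of 8 at least 2-fold higher and 1 lower, median difference -0.09). Of the 8 progenitor markers 5 were at least 2-fold lower in CGN. The part of other cell types in the member values was not tested.

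Among those higher in CGN, pore subunits of voltage-gated channels were Kcna3, Kcnh1 and Kcnh7. Kcna3 (Kv1.3) read 6.13 and 6.64 in CGN, against 4.01, 4.45 and 4.38 in CGNP, a difference of 2.11. Kcnh1, an ether-a-go-go channel, read 6.25 and 5.76 in CGN, against 4.43, 4.46 and 4.64 in CGNP. Kcnh7, of the ERG type, read 6.63 and 6.32 in CGN, against 5.14, 5.47 and 5.46 in CGNP. These 3 genes belong to channels that open on depolarization, and none of their arrays overlapped between the stages. In CGNP Kcna3 and Kcnh1 lay below the median signal of all genes, and background was not analysed here.

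Kcnma1 and Kcnt1, which encode ion-activated pores, were also higher in CGN. Kcnma1, the pore of the BK channel, which opens on calcium and voltage, read 9.68 and 9.31 in CGN, against 7.84, 8.13 and 7.81 in CGNP, a difference of 1.57. Kcnt1 (Slack), opened by sodium, read 7.75 and 7.58 in CGN, against 6.39, 5.82 and 6.08 in CGNP, a difference of 1.57 as well. The TREK-1 leak gene Kcnk2 read 8.09 and 8.06 in CGN, against 7.24, 6.60 and 7.12 in CGNP. Kcnip4 had the highest difference of all members, 2.17.

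Members at least 2-fold lower in CGN were Kcnip2 (-2.50), Kcnj10, Kcne1l and Kcnn2. Kcnj10 (Kir4.1), the main potassium-buffering channel of astroglia, read 6.74 and 7.16 in CGN, against 8.19, 8.28 and 8.56 in CGNP. After joint quantile normalization its difference was -0.91, below 2-fold. The 8 astroglial markers averaged 8.57 to 9.21 per array in CGN and 9.04 to 9.21 in CGNP. Of these Gdf10 alone was at least 2-fold lower, at 4.29 in CGN, against 7.41 in CGNP. The median difference of the 8 was 0.19, and 0.78 after joint quantile normalization. The part of glia in the Kcnj10 value was not tested. Kcnn2, an SK channel gene, read 4.73 and 5.37 in CGN, against 5.87, 6.82 and 6.14 in CGNP. Kcne1l, an auxiliary subunit, read 5.41 and 5.89 in CGN, against 6.84, 6.82 and 7.18 in CGNP.

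**Figure D3:**
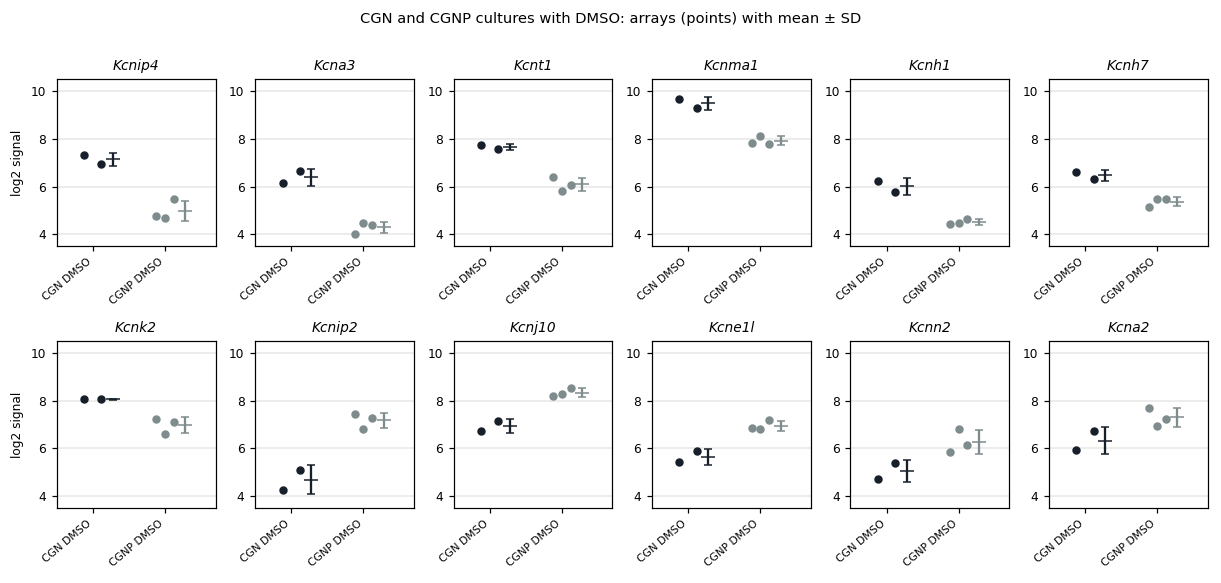
Log2 signal (vertical axis) in CGN and CGNP cultures with DMSO, 1 point per array, with mean and SD (n = 2 CGN, n = 3 CGNP). The 7 genes at least 2-fold higher in CGN come first, then the 4 at least 2-fold lower and Kcna2 (-0.98).

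Other channels known from granule cells differed less between the stages. Kcnk9 was at 10.11 and 10.14 in CGN, against 9.87, 9.83 and 9.77 in CGNP, and Kcnk1 at 10.91 and 10.95, against 10.82, 10.89 and 10.77. Kcnk1 and Kcnk9 therefore did not reach a 2-fold difference, nor did they after joint quantile normalization (0.70 and 0.90). Kcnj6 (GIRK2), which forms channels with the product of Kcnj3, read 8.14 and 7.54 in CGN, against 8.14, 8.26 and 8.84 in CGNP, with overlap. Kcna1 (Kv1.1) read 7.09 and 7.08 in CGN, against 7.58, 7.32 and 7.71 in CGNP. Kcnc1 (Kv3.1), a fast repolarizing channel, read 6.88 and 6.48 in CGN and 7.33, 6.75 and 7.14 in CGNP, again overlapping. Joint quantile normalization brought the difference of Kcna1 to 0.02, against -0.45 on the deposited scale, and that of Kcnc1 to -0.0064, against -0.40.

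The remaining members are given by class. All 10 silent Kv genes lay between -0.61 and 0.22 for CGN against CGNP with DMSO, and none was 2-fold apart. The 14 inward rectifier genes had a median difference of -0.0014 and lay between -1.39 (Kcnj10) and 0.48. The 13 leak subunit genes lay between -0.50 and 1.08 (Kcnk2), with a median of -0.08. The 26 voltage-gated genes had a median of -0.07 and the 16 auxiliary genes one of -0.20, all on the deposited scale on which the median of all genes was -0.23.

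Promoter windows of Kcnip3 and of members that parted between the stages are shown to let their sequences be read side by side. RefSeq windows (build GRCm38.p6, 250 bases before to 50 after a start site, 300 in all) were at hand for 67 of the 87 genes, 92 windows in total. The motif searched was the E-box CANNTG, which reads the same on both strands and is bound by basic helix-loop-helix factors such as Atoh1 and Neurod1 in granule cells. It occurred in 67 of the 92 windows (72.8%) and in 72.3% of 32851 windows of all genes, so its presence does not set the members apart. Capitals mark each match. Kcnip2 (chr19:45816014-45816313, minus strand), Kcnip3 (chr2:127522045-127522344, minus strand, the first of 3 windows) and Kcnip4 (chr5:49285610-49285909, minus strand, the first of 2) are the KChIP genes lower in CGN than in CGNP, alike in both and higher in CGN.
Kcnip2: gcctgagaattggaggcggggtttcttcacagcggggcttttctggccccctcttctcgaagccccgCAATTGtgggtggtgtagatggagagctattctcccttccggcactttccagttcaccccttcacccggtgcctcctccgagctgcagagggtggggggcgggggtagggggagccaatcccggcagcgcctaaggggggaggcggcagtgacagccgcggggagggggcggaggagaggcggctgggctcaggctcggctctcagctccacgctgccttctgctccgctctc
Kcnip3: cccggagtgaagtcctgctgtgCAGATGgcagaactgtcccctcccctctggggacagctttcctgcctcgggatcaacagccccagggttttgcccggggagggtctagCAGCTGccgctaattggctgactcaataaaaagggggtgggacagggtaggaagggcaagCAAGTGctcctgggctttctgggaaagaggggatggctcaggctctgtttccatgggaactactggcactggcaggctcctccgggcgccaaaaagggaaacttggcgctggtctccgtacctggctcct
Kcnip4: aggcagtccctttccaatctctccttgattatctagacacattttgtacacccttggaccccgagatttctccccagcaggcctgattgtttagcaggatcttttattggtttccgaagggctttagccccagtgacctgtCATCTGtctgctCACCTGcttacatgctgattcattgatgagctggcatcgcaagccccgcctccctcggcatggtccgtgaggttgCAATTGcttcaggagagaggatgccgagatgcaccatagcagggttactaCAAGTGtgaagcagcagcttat
Kcnip4 had 4 matches, Kcnip3 had 3 and Kcnip2 had 1 in the window shown, and their GC contents were 51.0%, 60.3% and 67.0%, against a median of 52.7% over all windows. The windows not shown had 1 and 0 matches for Kcnip3 (GC 58.0% and 73.3%) and 3 for Kcnip4 (59.7%). The counts therefore depend on the start site taken. A match is only these letters and not a binding site.

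Kcna3 and Kcna2 are neighbours on chromosome 3 and parted between the stages. Kcna3 was 2.11 higher in CGN, whereas Kcna2 (Kv1.2) read 5.92 and 6.72 in CGN, against 7.72, 6.93 and 7.25 in CGNP, a difference of -0.98 that fell short of 2-fold. Their windows, at chr3:107035912-107036211 and chr3:107101317-107101616, both on the plus strand, differ in GC content (75.0% for Kcna3 and 66.7% for Kcna2) and in E-box matches, of which Kcna2 has 2.
Kcna3: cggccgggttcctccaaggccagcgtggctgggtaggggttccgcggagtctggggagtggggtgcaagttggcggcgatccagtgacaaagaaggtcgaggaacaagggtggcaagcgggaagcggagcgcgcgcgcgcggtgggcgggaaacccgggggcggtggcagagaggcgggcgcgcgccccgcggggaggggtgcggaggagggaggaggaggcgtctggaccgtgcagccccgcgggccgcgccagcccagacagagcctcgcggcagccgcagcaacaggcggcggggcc
Kcna2: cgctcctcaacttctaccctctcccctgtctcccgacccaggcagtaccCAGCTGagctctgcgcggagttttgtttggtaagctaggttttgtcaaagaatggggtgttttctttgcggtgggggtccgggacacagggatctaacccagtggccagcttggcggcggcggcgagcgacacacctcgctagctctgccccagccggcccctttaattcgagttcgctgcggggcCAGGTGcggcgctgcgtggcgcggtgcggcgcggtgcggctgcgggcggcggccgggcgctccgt
Differences of opposite sign were seen for other pairs of neighbours too, such as Kcnj9 (0.44 higher in CGN, with overlap) and Kcnj10 (-1.39). Kcna6 (0.49) and Kcna1 (-0.45) were another such pair, each without overlap. Of 10 neighbouring pairs among the members these were chosen after their values were seen.

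Partner proteins of the channels, from a list of 17 genes, all measured, were at least 2-fold higher in CGN than in CGNP in 5 cases (2.75% of all genes) and lower in 1 (11.2%). After joint quantile normalization the counts were 5 higher and 0 lower. Dpp6, which joins the Kv4 and KChIP complex and speeds the A-type current, read 10.33 and 10.69 in CGN, against 9.29, 9.16 and 8.90 in CGNP. Cntnap2 (Caspr2), which clusters Kv1 channels along axons, was 1.97 higher, Lgi1 (a secreted modulator of Kv1 channels) 2.02 higher, the scaffold gene Dlg2 2.45 higher and Lrrc26, a BK auxiliary subunit, 1.51 higher. Cntn2, the Caspr2 partner TAG-1 known as a marker of early granule neurons, read 10.84 and 10.62 in CGN, against 12.12, 12.36 and 12.34 in CGNP, and its difference was -0.97 after joint quantile normalization, below 2-fold. No member of the HCN list (3 of 4 measured) or of the list of potassium pumps and cotransporters (7 of 11) was 2-fold apart on the deposited scale, and after joint quantile normalization Atp1b2 was 1.35 higher in CGN.

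Deletion of Dot1l in the granule lineage was compared with control to ask whether channel genes depend on it. No member passed the adjusted test (limma, Benjamini-Hochberg adjusted p below 0.05), whereas 0.0225% of all genes did, and the smallest adjusted p among members was 0.342. Without adjustment, 12 members had p no higher than 0.05 (8.69% of all genes), 7 of them higher in cKO (4.09%) and 5 lower (4.6%). The authors' results also count genes at a p-value of 0.05. After subtraction of array medians the split was 3 higher (1.79% of all genes) and 8 lower (11%), so all genes shifted downward too. The groups did not overlap in 14 members (14% of all genes), 7 higher in cKO (6.28%) and 7 lower (7.75%). The median difference was 0.07 over members and -0.01 over all genes, with a median SE of 0.165 for a member.

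Kcnn2 had the largest difference among members higher in cKO. It read 6.43, 7.28 and 7.16 in cKO, against 6.18, 6.20 and 5.99 in control cerebella, a difference of 0.83 (SE 0.232, n = 3 each, limma adjusted p = 0.392). The 3 cKO arrays lay above all controls, replicate 1 only slightly. Kcnh3, an ELK channel of forebrain neurons, read 5.66, 6.04 and 5.63 in cKO, against 5.37, 5.22 and 4.96 in control. Its mean over these cerebella lay below the median signal of all genes. Kcna2 read 7.81, 7.94 and 8.28 in cKO, against 7.56, 7.74 and 7.58 in control. These genes did not overlap between the groups but failed the adjusted test (adjusted p = 0.438 for Kcnh3 and 0.543 for Kcna2, limma).

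The leak channel genes bright in granule cells went both ways. Kcnk9 (TASK-3) read 9.12, 9.24 and 9.45 in cKO, against 8.85, 8.84 and 8.82 in control cerebella, a difference of 0.44 (SE 0.122, limma adjusted p = 0.392). Kcnk1 (TWIK-1) read 9.30, 8.80 and 8.94 in cKO, against 9.63, 9.45 and 9.60 in control, a difference of -0.55 (SE 0.140, limma adjusted p = 0.342). Kcnk10 (TREK-2) was lower as well, at 8.63, 8.63 and 8.69 in cKO, against 8.84, 8.99 and 8.92 in control. Kcnk2 (TREK-1) read 7.73, 7.78 and 7.70 in cKO, against 8.02, 8.11 and 7.86 in control, but was not at or below the unadjusted cut-off. Thus within 1 class Kcnk9 was above and Kcnk1, Kcnk10 and Kcnk2 were below all controls, though none passed the adjusted test.

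Kcnj3 (GIRK1) read 8.88, 9.13 and 8.96 in cKO, against 9.44, 9.55 and 9.24 in control cerebella, a difference of -0.42 (SE 0.126, limma adjusted p = 0.403). A second, dimmer cluster of the gene differed by -0.42 too. Its partner Kcnj6 read 7.20, 6.91 and 7.08 in cKO and 6.82, 7.32 and 7.71 in control, with overlap. The remaining named members lower in cKO, Kcnv2 and Kcna5, were dim, with all their signals below 5.3. Kcnd2 read 10.92, 10.81 and 11.00 in cKO, against 10.75, 10.59 and 10.79 in control, a difference of 0.20 (SE 0.0963) without overlap. Kcnip4 and Kcna1 differed by -0.03 and 0.03, and Kcnma1 by 0.14, each with overlapping groups. Kcnc1 read 6.45, 6.69 and 5.98 in cKO, against 5.62, 5.99 and 6.00 in control.

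By class, all 8 calcium- or sodium-activated subunit genes had a higher mean in cKO than in control cerebella, with differences of 0.07 to 0.83, and 1 of them (Kcnn2) was at or below the unadjusted cut-off. After subtraction of array medians 6 of the 8 were higher. Over all members 56 had a higher mean (47.9% of all genes), and 41 after that subtraction, which moved the median difference of members to -0.01 and that of all genes to -0.09. Several marker lists moved with the genotype too. All 8 progenitor markers had lower means in cKO. Markers of GABAergic interneurons averaged 7.71 to 7.92 per array in cKO, against 7.29 to 7.50 in control, with 6 of 7 higher. Markers of oligodendrocytes averaged 7.71 to 8.10, against 7.60 to 7.71 (6 of 7 higher), those of microglia 6.10 to 6.47, against 5.97 to 6.25 (6 of 7 higher, array means overlapping), and those of skeletal muscle 5.45 to 5.72, against 4.51 to 4.66 (9 of 9 higher, 2 past the adjusted test). Astroglial markers averaged 10.53 to 10.69, against 10.38 to 10.51 (5 of 8 higher), and those of pericytes and smooth muscle 7.32 to 7.55, against 7.28 to 7.35 (7 of 7 higher, overlapping). Other lists were mixed or lower, with 1 of 4 Purkinje cell markers higher (median difference -0.11) and 4 of 8 granule neuron markers (0.01). Of endothelial markers 3 of 6 were higher (0.06), and of choroid plexus markers 4 of 6 (0.22). Their part in the member values was not tested.

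**Figure D4:**
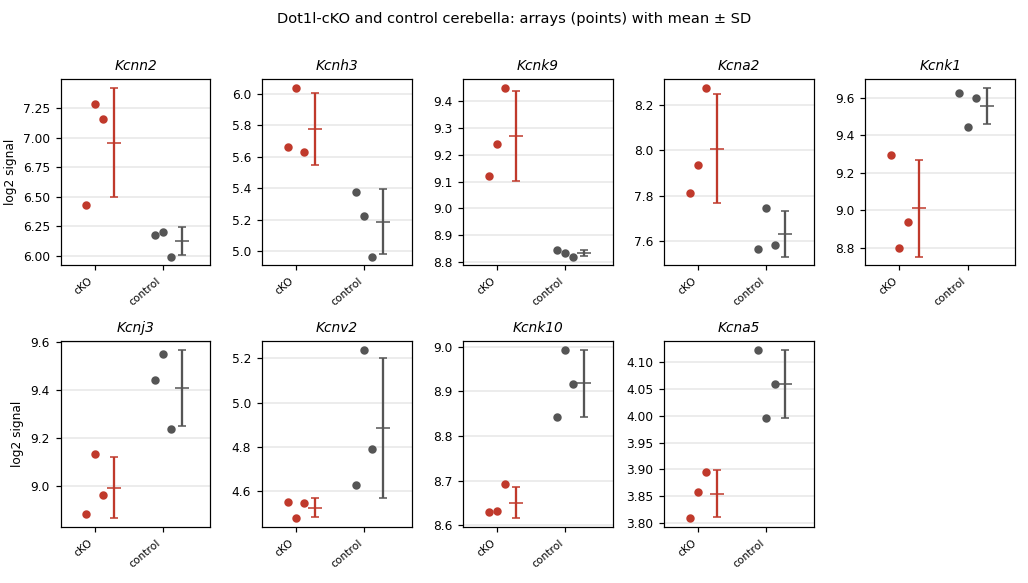
Log2 signal (vertical axis, its own range in each panel) in cKO and control cerebella, 1 point per mouse, with mean and SD (n = 3 each). The 4 genes higher and the 5 lower in cKO are those at or below an unadjusted p of 0.05 whose groups did not overlap, and none passed the adjusted test.

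In the lists of related genes, 1 pump subunit and 2 channel partners were at or below the unadjusted cut-off in cKO, all higher. The ATPase beta subunit Atp1b2, abundant in astroglia, read 9.11, 9.61 and 10.01 in cKO, against 8.53, 9.27 and 8.61 in control cerebella, with overlap. Abcc8 (SUR1, which joins Kir6 subunits into ATP-sensitive channels) differed by 0.47 and Dlg4 (PSD-95) by 0.37. The limma adjusted p was 0.396, 0.540 and 0.523 for Atp1b2, Abcc8 and Dlg4, and none passed.

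SGC0946 was given to CGNP for 4 h to ask about short inhibition. None of the 87 genes passed the adjusted test (0.0316% of all genes did), and 10 were at or below the unadjusted cut-off (4.08%), 6 higher with SGC0946 (2.25%) and 4 lower (1.83%). After subtraction of array medians the split was 3 higher (1.64% of all genes) and 4 lower (2.36%). The groups did not overlap in 12 members (9.78% of all genes), and 44 of the 87 had a higher mean with SGC0946 (51.3%). All the adjusted p-values of members rounded to 1 (limma).

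Most of the named members in CGNP were dim. Kcnn3 read 4.61, 4.19 and 4.68 with SGC0946, against 4.79, 5.04 and 5.29 with DMSO, a difference of -0.55 (SE 0.224, n = 3 each). Kcnd1 (-0.31) and the silent subunit gene Kcnf1 (-0.22) were lower, and Kcng2 (0.30), also silent, and Kcnmb3 (0.30), a BK beta subunit, were higher, with all their signals below 5. Of brighter members, Kcnma1 read 7.38, 7.94 and 6.85 with SGC0946, against 7.84, 8.13 and 7.81 with DMSO, a difference of -0.53 (SE 0.221) with overlap. Kcnk2 read 7.14, 7.58 and 7.67 with SGC0946, against 7.24, 6.60 and 7.12 with DMSO, a difference of 0.48 (SE 0.202), the highest of the members here. Kcnq3, a pore subunit of the M-type current, read 6.25, 6.66 and 6.62 with SGC0946, against 6.28, 6.08 and 5.90 with DMSO, a difference of 0.42 (SE 0.190). Kcnk2 and Kcnq3 were at or below the unadjusted cut-off and overlapped between the treatments. Kcnk9, Kcnk1, Kcnd2, Kcna1 and Kcnc1 differed by at most 0.14 in size. Kcnj6 read 8.85, 8.02 and 7.15 with SGC0946, a wider spread than its 8.14, 8.26 and 8.84 with DMSO. Kcna2 (0.47) and Kcnip4 (0.21) overlapped between the treatments as well. In the lists, Lrrc26 (0.44) and the potassium chloride cotransporter gene Slc12a7 (0.42) were higher at the unadjusted cut-off. No HCN gene was at or below it in any of the 3 tested comparisons.

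In CGN, SGC0946 for 44 h went with 8 members lower and 1 higher at the unadjusted cut-off, 9 in all (7.48% of all genes; 4.08% lower and 3.39% higher). None of the 87 passed the adjusted test, against 0.153% of all genes. The groups of 2 arrays did not overlap in 26 members (34.1%), and 36 of the 87 had a higher mean with SGC0946 (48.7%). The median difference was -0.04 over members and -0.01 over all genes. After a further quantile normalization the split was 6 lower (4.03% of all genes) and 3 higher (3.83%).

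Kcnip3 came closest to the threshold. It read 7.28 and 7.85 with SGC0946, against 8.35 and 9.04 with DMSO, a difference of -1.13 or 2.19-fold lower (SE 0.227, n = 2 each, limma adjusted p = 0.0763). The SD of Kcnip3 in CGN was 0.491 with DMSO and 0.398 with SGC0946, against 0.067 and 0.162 in CGNP. The fit pooled the culture groups, so the SE rests in part on the narrower spread in CGNP. Kcnip3 passed when the 6 groups were fitted together (limma adjusted p = 0.0426) and when dim genes were left out (0.0466). It did not pass under the other alternatives that kept all the CGN arrays compared. Over all alternatives its adjusted p reached 0.738. With a CGN array left out, its difference ranged from -1.48 to -0.78. The CGN arrays with contradictory labels read 7.68 and 7.18, in or near the range of the SGC0946 cultures. In CGNP Kcnip3 read 8.90, 9.20 and 8.94 with SGC0946, against 8.80, 8.88 and 8.93 with DMSO. The response in CGN minus that in CGNP was -1.28 (SE 0.293, limma adjusted p = 0.541), so a difference between the stages was not established. No gene on the arrays passed that test (0% of all genes; 5.46% at or below an unadjusted p of 0.05, among them 6 members).

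The other lower members came from several classes. Kcnma1 read 8.83 and 8.78 with SGC0946, against 9.68 and 9.31 with DMSO, a difference of -0.69 (SE 0.270, limma adjusted p = 0.564). Kcnj3 read 10.18 and 10.49 with SGC0946, against 10.87 and 10.63 with DMSO, a difference of -0.42. Its second, dimmer cluster read 5.32 and 4.78, against 5.20 and 5.09, a difference of -0.09 with overlap. Kcnk9 read 9.86 and 9.88 with SGC0946, against 10.11 and 10.14 with DMSO. Kcnd2 read 11.30 and 11.45 with SGC0946, against 11.62 and 11.53 with DMSO. Kcnma1, Kcnj3, Kcnk9 and Kcnd2 are among the bright channel genes of granule cells, and the arrays of the clusters used did not overlap between treatments. Kcnk12 (-0.51) and Kcna1 (-0.50) were lower too, as was the Kir2.1 gene Kcnj2, which read 4.73 and 4.65, against 5.40 and 5.31. Kcnb2 (Kv2.2) was the 1 higher member, at 8.68 and 8.43 with SGC0946, against 8.25 and 7.61 with DMSO, a difference of 0.63. Single arrays weighed on these sizes. The difference of Kcnb2 was 0.31 without DMSO replicate 2 and 0.94 without DMSO replicate 1, that of Kcna1 was -0.28 without SGC0946 replicate 2, and that of Kcnk12 was -0.30 and that of Kcnj3 -0.26 without SGC0946 replicate 1. Kcnk1 (-0.07), Kcna2 (-0.03), Kcnip4 (-0.41), Kcnc1 (0.13) and Kcnj6 (0.25) overlapped between the treatments.

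Of the related genes, Atp1b1 encodes the main beta subunit of the neuronal sodium-potassium pump. Among the partner, HCN and pump and cotransporter lists it was the 1 gene past the adjusted test in any comparison, and it is named for that. It read 11.18 and 11.20 with SGC0946 in CGN, against 12.04 and 11.97 with DMSO, and fell by 0.81 (SE 0.0937, n = 2 each, limma adjusted p = 0.00230). The adjusted p was 0.0598 without an intensity trend, 0.193 with ordinary variance and 0.143 with the CGN arrays alone, and ranged between 0.00189 and 0.193 over the alternatives. The arrays with contradictory labels read 11.98 and 11.51. Lgi1 read 6.35 and 7.44 with SGC0946, against 7.66 and 8.27 with DMSO, a difference of -1.07 (limma adjusted p = 0.331). Markers of the oligodendrocyte lineage averaged 6.42 to 6.45 per array with SGC0946, against 6.86 to 6.94 with DMSO (0 of 7 higher), those of astroglia 8.42 to 8.59, against 8.57 to 9.21 (1 of 8 higher), and those of GABAergic interneurons 5.00 to 5.84, against 5.69 to 6.22 (1 of 7 higher). Progenitor markers averaged 7.92 to 7.94, against 7.79 to 7.80 (6 of 8 higher, 3 of them at the unadjusted cut-off). Their part in the channel values was not tested.

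**Figure D5:**
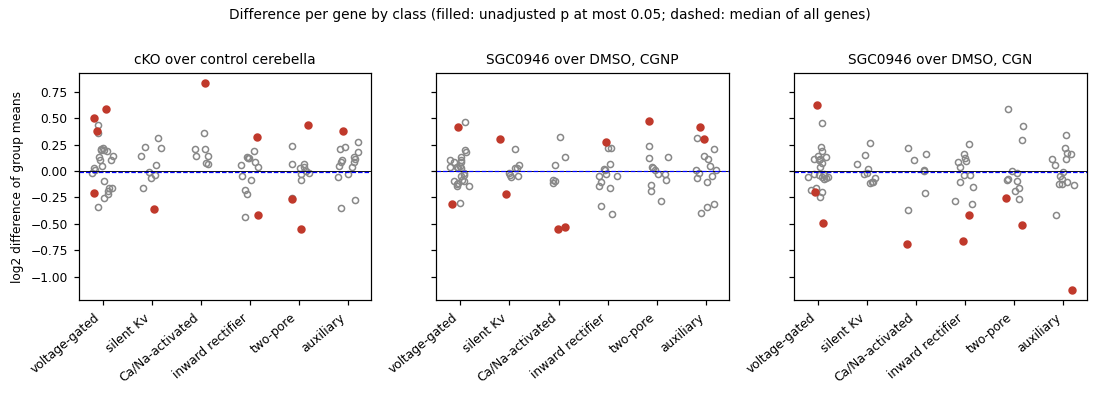
Log2 difference of group means (vertical axis) for each of the 87 genes by class, for cKO over control cerebella and for SGC0946 over DMSO in CGNP and in CGN. Filled points have an unadjusted p of at most 0.05, none passed the adjusted test, and the dashed line is the median of all genes. Kcnip3 in CGN (-1.13) is the lowest point and Kcnn2 in cKO (0.83) the highest.

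Across the 3 comparisons the sizes were small beside the differences between stages and tissue. Members lay between -0.55 and 0.83 in cKO, between -0.55 and 0.48 in CGNP and between -1.13 and 0.63 in CGN, whereas they lay between -2.50 and 2.17 for CGN against CGNP with DMSO. Members at or below the unadjusted cut-off in 2 of the 3 comparisons were Kcnj3, Kcnk9, Kcnip3 and Kcnma1. The share of all genes that recurred in this way was not counted, so the recurrence is only described. Taken singly, the cut-off held 8.69% of all genes in cKO, 4.08% in CGNP and 7.48% in CGN. The brighter cluster of Kcnj3 was lower both in cKO and in CGN with SGC0946, whereas Kcnk9 was higher in cKO (0.44) and lower in CGN with SGC0946 (-0.26). Kcnip3 was lower in CGN with SGC0946 (-1.13), while in cerebella it read 9.12, 9.36 and 9.71 in cKO, against 8.76, 9.18 and 9.11 in control, a difference of 0.38 (SE 0.165, limma adjusted p = 0.555) with overlap. Kcnma1 was lower with SGC0946 both in CGN (-0.69) and in CGNP (-0.53, with overlap). None of these 4 genes passed the adjusted test in the reported fits.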

How the data were processed

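The samples were 18 Affymetrix Mouse Gene 2.0 ST arrays, of which 16 were grouped from the labels. Per the labels and methods, the authors used Partek to correct probe signals for GC content and sequence, applied RMA background correction and quantile normalization, summarized probes by median polish and deposited the result as log2 signals. No software version is given in the sources. The authors' comparison tables hold p-values, q-values and fold changes, and these columns were not used. Of 34472 clusters, 23521 have 1 symbol in the platform annotation, 1820 have several and 9131 were not named, which left 22180 genes after the brightest cluster was taken (7 members had more than 1). Differences were tested with limma (version 3.58.1, R 4.3.3) by lmFit and eBayes with an intensity trend, separately for the cerebella and for the 10 culture arrays, and p was adjusted by Benjamini-Hochberg over all genes. No dim gene was removed. The fits were tested on simulated data. CGN against CGNP was only described, as genes at least 2-fold apart without overlap. The CGNP cultures of both treatments came from the same mice, and the deviations of such pairs from their group means correlated by 0.013, 0.035 and 0.0096 over genes. The number of arrays limits the precision, and p-values measure the spread between these samples, which for cultures may be technical.

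Named genes are, per tested comparison, up to 7 in each direction with the largest difference among those with an unadjusted p no higher than 0.05 and no overlap, up to 10 in each direction for CGN against CGNP, the 5 brightest per experiment, and 9 measured channel genes known from granule or Purkinje cells. Other genes given values were chosen after their values were seen. The members, gene lists and markers were chosen with earlier results of these data known. Alternatives were other normalization and centring, the variance model, a filter on dim genes, the mean of all clusters, other sets of arrays in the fit, and leaving out each array.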

Additional observations from a re-analysis of the deposited data

How the results depend on the processing

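No member passed the adjusted test in cKO or CGNP under any alternative run, nor did the difference between the responses of CGN and CGNP. In CGN, Kcnip3 alone passed, giving 1 member when all 6 groups were fitted together and 1 when dim genes were left out, and 0 to 1 when an array was left out (1 without CGN SGC0946 replicate 2). With an array left out, members at the unadjusted cut-off numbered 6 to 14 in cKO (6 without control replicate 3, against 12 with all arrays), 4 to 8 in CGNP (10 with all; at most 6 without any array other than SGC0946 replicate 1) and 4 to 10 in CGN (4 without SGC0946 replicate 1, against 9). The CGNP count was 3 with dim genes left out, 6 with ordinary variance and 7 with the mouse as a replicate block on the CGNP arrays alone (10 on those arrays without the block). Under the block Kcnf1 and Kcng2, both named above, left the unadjusted cut-off, Kcnf1 already on those arrays without the block, and no adjusted call changed. For CGN against CGNP, 12 members were higher and 12 lower at 1.5-fold, and 11 were higher after joint quantile normalization (5.03% of all genes). The median difference of all genes was -0.23 on the deposited scale. Shares of all genes were not counted at 1.5-fold or for the alternative counts at the unadjusted cut-off above. List genes at the unadjusted cut-off numbered 6 with array medians subtracted, 1 with ordinary variance and 1 to 5 with an array left out in cKO (3 in the reported fit), 1 with dim genes left out and 0 to 2 with an array left out in CGNP (2 in the reported fit), and 3 to 6 with an array left out in CGN (2 in the reported fit).

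Small differences turned sign. Kcna1 in cKO was -0.0506 with medians subtracted, -0.0136 after further quantile normalization and -0.0819 to 0.12 with an array left out, and Kcnip4 there -0.33 to 0.32. With a CGNP array left out, Kcna1 ranged from -0.16 to 0.0363, Kcnc1 from -0.0607 to 0.23 and Kcnj6 from -0.83 to 0.0245. With a CGN array left out, Kcna2 ranged from -0.56 to 0.50 (0.0326 after further quantile normalization), Kcnc1 from -0.0713 to 0.33, Kcnj6 from -0.0502 to 0.56 and Kcnk1 from -0.15 to 0.0029. The cause was not tested. Signal over background was not analysed here, and 41 members lay below the median of all genes in all 3 experiments.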

Other observations

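Kcna4, the A-type Kv1.4 pore subunit, had a second cluster that went apart from the brighter one used. The second cluster read 4.73 and 4.86 in CGN with SGC0946, against 6.84 and 6.61 in CGN with DMSO, a difference of -1.93. The CGN arrays with contradictory labels read 6.93 and 5.70 there. The brighter cluster read 7.49 and 7.40 with SGC0946, against 7.27 and 7.70 with DMSO. Between the stages with DMSO the second cluster was 1.40 higher in CGN, whereas the brighter one was 0.74 lower. Which part of the transcript or locus each cluster covers was not analysed here. A second Kcnq5 cluster was 1.30 higher in CGN than in CGNP and the brighter one 0.71 higher.

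The CGN arrays with contradictory labels, titled DMSO and DOT1L inhibitor in this order, read 9.58 and 8.80 for Kcnma1, 10.09 and 9.87 for Kcnk9, 11.04 and 10.48 for Kcnj3, and 11.62 and 11.42 for Kcnd2. For Kcnip3 they read 7.68 and 7.18, both below the CGN cultures with DMSO compared above.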
